A study of Homo sapiens with 31 samples.

Results

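The comparison concerned NALM-6 cells carrying the control hairpin sh-CTRL, harvested at day 13 or day 10 after lentiviral transduction. NALM-6 is an established B-cell precursor acute lymphoblastic leukemia line. The members were chosen by label alone, as all sh-CTRL libraries of these 2 days. They numbered 10 of the 31 libraries in the series. At day 10 there were 3 libraries of EF1α/sh-CTRL and 2 of SFFV/sh-CTRL, and day 13 had the same numbers. EF1α and SFFV are the RNA polymerase II promoters that drove the hairpin, which sat in a miR30 backbone behind a red fluorescent reporter. The sh-CTRL hairpin was directed against eGFP, so that both days carried vector, reporter and an active hairpin, and an untransduced group was not analysed here. The 11 sh-XIAP libraries of the same days, carrying a hairpin against the caspase inhibitor XIAP behind the same promoters, served as independent libraries. The labels describe cells grown in vitro, whereas the design text of the series speaks of mouse bone marrow, and the labels were followed. Nothing in them says that replicates came from separate cultures, so the p-values concern these libraries alone, and their spread may be technical.

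The question was what moved over 3 days in cells with the control hairpin. Cytosolic ribosomes are built from a large and a small subunit, each made of ribosomal RNA and ribosomal proteins, and the ribosomal protein messages are among the most abundant of a dividing cell. Many of these messages begin at a cytosine within a short run of pyrimidines, the 5′ terminal oligopyrimidine tract, through which their translation is coordinated with growth signals. Ribosomal protein genes have also left many processed pseudogenes in the human genome, copies of the spliced message whose sequence can be close to that of the gene.

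A short group of abundant transcripts was higher at day 13, and most of the transcriptome did not pass the test. Of 17490 genes tested, 41 passed an adjusted p of 0.25 in limma-voom (0.234%), 39 of them higher at day 13 (0.223%) and 2 lower (0.0114%), while 908 (5.19%) had an unadjusted p under 0.05. The 41 comprised 9 cytosolic ribosomal protein genes, 28 pseudogenes, MT-CO2, CAPZB, RPEL1 and the immunoglobulin constant gene IGLC7. The edgeR quasi-likelihood test passed 43 genes (0.246%), 33 of them shared, and 26 genes passed in limma-voom, edgeR and DESeq2. All 41 differed in the same direction under both promoters. In 24 of them the EF1α libraries and the SFFV libraries were each separated by day with day 13 higher, which 0.772% of all genes tested were. Both genes that were lower were separated within each promoter too (background 0.926%). Over all genes tested, the libraries of the 2 days did not overlap in 141 (0.806%), counting both directions. The 41 were called from these same libraries, so their separation and their common direction are not further evidence. With 10 bulk samples, a larger share of cells that express a gene and more of its RNA per cell cannot be told apart.

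The calls depended strongly on which libraries entered the fit. When all 21 libraries of days 10 and 13 entered the fit, 3 genes passed, RPL34, RPEL1 and IGLC7, and with all 31 libraries RPL34 and RPEL1 passed. The fold changes themselves were nearly the same in that fit. RPS18, for instance, had a log2 fold change of 0.21 from the sh-CTRL libraries alone and 0.23 in the fit of 21, where its adjusted p was 0.926. Why the larger fits passed fewer genes was not tested. The values below are those of the fit of the sh-CTRL libraries alone. Limma-voom draws the spread of a gene partly from all genes, so its SE need not reflect the spread of that gene. For RPL34 the SE was 0.02 on the log2 scale, while its day 13 libraries ranged from 20100 to 26900 CPM. An exact permutation of days, which uses the values of the gene alone, cannot give a p under 0.0167 here.

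The start sites of 4 ribosomal protein genes that were higher, and of RPLP0 from the same list, which was not, are shown because these genes share the pyrimidine tract. Each window holds 20 bases before and 10 after a RefSeq start in GRCh38.p14, read 5′ to 3′ on the strand of the gene. Capitals mark a run of at least 5 C or T bases that begins with C within 5 bases of the start.
RPL34, chr4:108620556-108620585, plus strand: ctggcaaaggcttttttCTTCCTCTTCCgg
RPS18, chr6:33272055-33272084, plus strand: gatatcgcgtcacttccgCTCTCTCTTCCa
RPL29, chr3:51995886-51995915, minus strand: tgctgcaccgcagccCCTTTCTCTTCCggt
RPL26, chr17:8383184-8383213, minus strand: accggaagcagcgtgtagttCTCTTCCCTT
RPLP0, chr12:120201102-120201131, minus strand: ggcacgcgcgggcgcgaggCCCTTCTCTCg
RefSeq lists a second start of RPL34, with the window chr4:108620609-108620638, which holds no such run, and the other genes shown have 1 start each.

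Counting a gene if any of its listed starts had it, such a run stood at the start of 54 of the 63 tested ribosomal protein genes that RefSeq lists (85.7%), against 25.2% of 27305 genes in the same table. It was present in 7 of 7 listed genes that passed the test and in 47 of 56 that did not (83.9%). The run was thus a property of the ribosomal protein genes in general, and RPLP0 carries one although its mean was 3520 CPM at day 10 and 3530 at day 13.

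RPL34 encodes a protein of the large subunit and is annotated at chromosome 4, 108620566 to 108630412, in GRCh38. At day 10 it stood at 17900, 18800 and 18500 CPM, UMI counts scaled to a common library total, under EF1α and at 20300 and 19000 under SFFV. At day 13 it stood at 20400, 20100 and 23300 under EF1α and at 26900 and 22200 under SFFV. Each promoter's libraries were separated by day, while the highest day 10 library, of SFFV, lay above 1 EF1α library of day 13, at 20100. The mean rose from 18900 ± 879 to 22600 ± 2730 CPM (SD, n = 5 each), a log2 fold change of 0.26 ± 0.02 (SE), with an adjusted p of 9.45e-15 in limma-voom and 2.54e-09 in edgeR.

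RPS18, a protein of the small subunit, lay between 9080 and 9950 CPM in the 5 day 10 libraries and between 10100 and 13000 at day 13, without overlap. RPS18 rose on the log2 scale by 0.21 ± 0.01 in limma-voom (adjusted p = 3.09e-17) and by 0.25 in edgeR (adjusted p = 2.14e-07). RPL37, of the large subunit, had 3530, 3560 and 3180 CPM under EF1α at day 10 and 3870, 3970 and 4080 at day 13. Under SFFV it had 3880 and 3590 at day 10 and 5040 and 4260 at day 13. The rise of RPL37 on the log2 scale came to 0.23 ± 0.02 in limma-voom (adjusted p = 5.58e-13) and 0.26 in edgeR (adjusted p = 8.48e-07).

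RPL29, a further large-subunit protein, ranged from 7550 to 8510 CPM at day 10 and from 8520 to 9500 at day 13, so that the groups met without overlapping. On the log2 scale it rose by 0.20 ± 0.01 in limma-voom (adjusted p = 6.49e-16) and by 0.16 in edgeR (adjusted p = 0.0266). RPL29 was also the gene whose day effect differed most clearly between promoters. Its level rose from 7720 ± 147 to 8880 ± 539 CPM under EF1α (n = 3 each) and from 8460 ± 70.7 to 8920 ± 382 under SFFV (n = 2 each). The difference of the day effects, SFFV minus EF1α, was −0.16 ± 0.03 on the log2 scale with an adjusted p of 0.0323 in limma-voom and 0.948 in edgeR. RPL29P4, a copy of it, had a difference of −0.21 ± 0.05 (adjusted p = 0.246 in limma-voom), and these were the 2 genes past the threshold for promoter by day (0.0114%). The edgeR test of promoter by day passed 0 genes, with 868 at an unadjusted p under 0.05, as did DESeq2 and limma-trend.

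**Figure D1:**
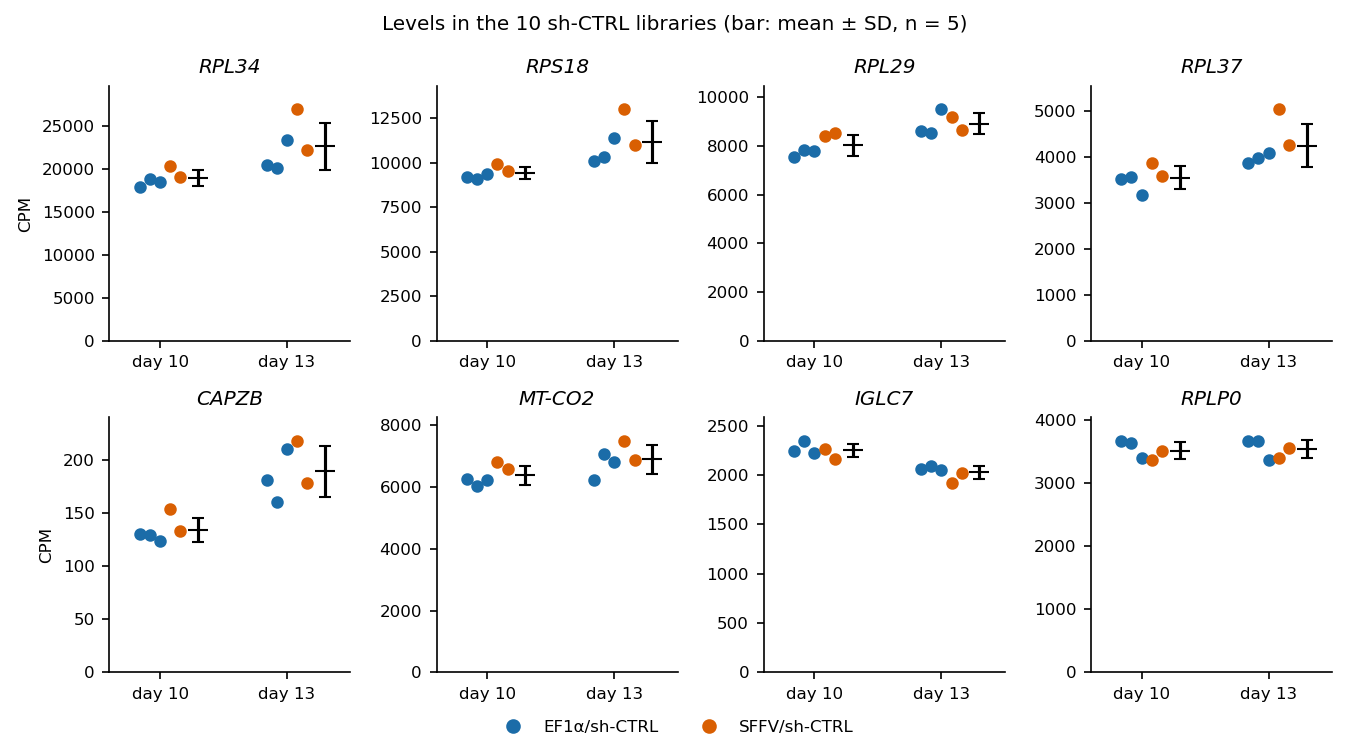
Levels of 8 genes in the 10 sh-CTRL libraries, in CPM from 0 on a linear axis, with 1 point per library (blue EF1α, orange SFFV) and the mean ± SD of 5 libraries beside them. RPL34, RPS18, RPL29, RPL37, CAPZB and MT-CO2 had higher means at day 13, IGLC7 a lower mean, and RPLP0 stood at 3520 and 3530 CPM.

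Other ribosomal protein genes past the limma-voom threshold had smaller differences. RPL26 (log2 fold change 0.16), RPS7 (0.14), RPLP1 (0.11) and RPL11 (0.07) had adjusted p-values between 0.272 and 0.997 in edgeR, and the day 10 and day 13 libraries of each overlapped. RPLP1 belongs to the stalk of the large subunit, at which translation factors bind, and RPL11 is known as a subunit protein that can bind MDM2.

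Of the 47 large-subunit genes tested 6 passed, all higher, and of the 32 small-subunit genes 3, all higher, against 0.234% of all genes. The median log2 fold change of the large-subunit list was 0.02 and that of the small-subunit list 0.01, beside 0.0049 over all genes. At an unadjusted p under 0.05, 11 of the large-subunit and 5 of the small-subunit genes were higher and 0 were lower, against 5.19% of all genes in both directions. The 9 genes that passed had a median of 0.19, and the other 70 a median of 0.01 with values from −0.10 to 0.64. RPL38, among the 70, had 463 ± 18.7 CPM at day 10 and 538 ± 111 at day 13 without overlap, as in 0.806% of all genes tested. It passed in edgeR (adjusted p = 0.164) but not in limma-voom (0.22 on the log2 scale, adjusted p = 0.62). RPL17, at the upper end of that range, had a mean of 7.94 CPM and an adjusted p of 0.979. Summed over the list, large-subunit messages took 81400 to 84500 CPM in the day 10 libraries and 86300 to 95200 at day 13. The small-subunit sum moved from between 43400 and 44800 to between 45300 and 47100 CPM. Neither sum overlapped between days, and both include the genes that passed. Of these, mean RPL34 went from 18900 to 22600 CPM and mean RPS18 from 9420 to 11200. RPLP0, the central stalk protein and one of the genes that did not pass, had 3660, 3640 and 3400 CPM (EF1α) and 3360 and 3510 (SFFV) at day 10, and 3670, 3670 and 3370 (EF1α) and 3400 and 3550 (SFFV) at day 13.

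**Figure D2:**
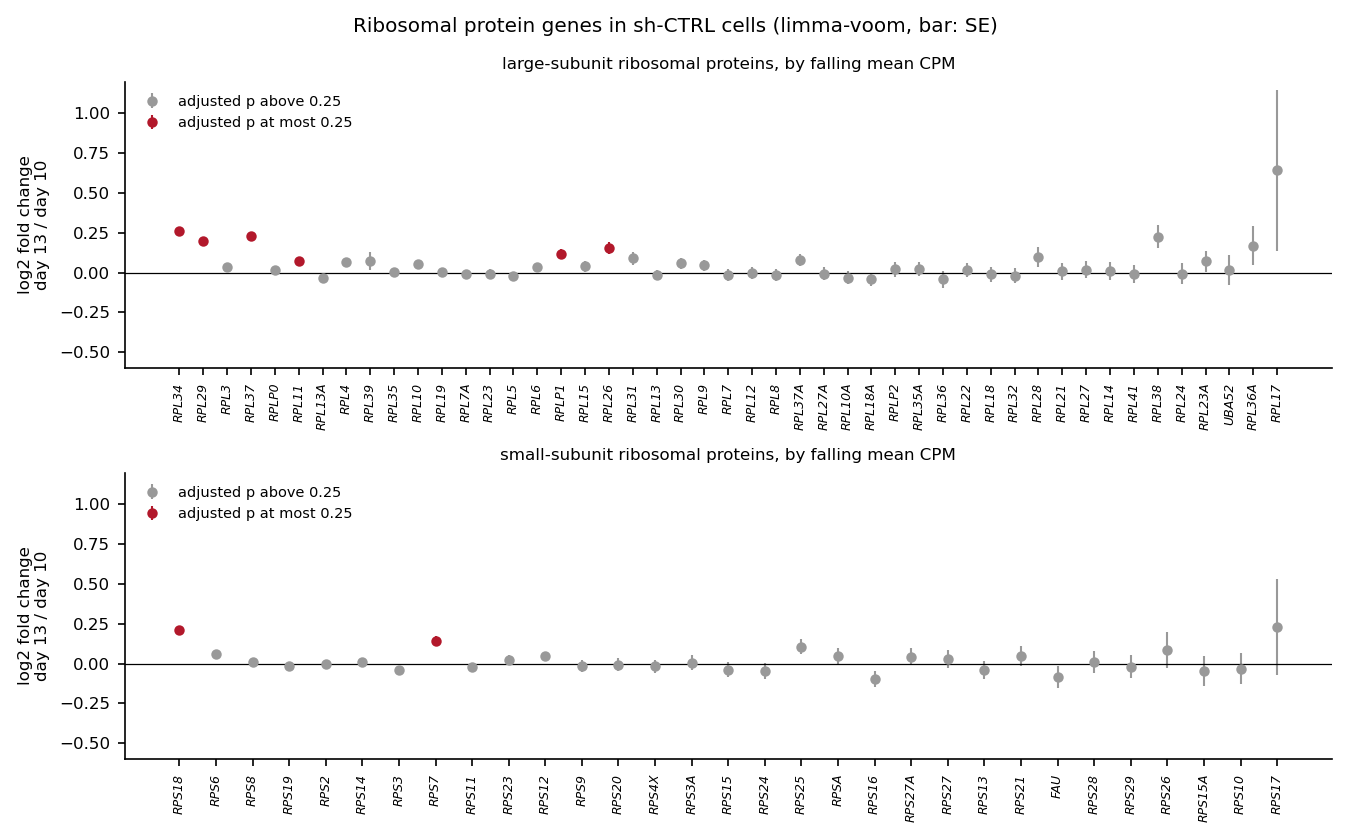
The log2 fold change from day 10 to day 13 of 47 large-subunit (top) and 31 small-subunit (bottom) ribosomal protein genes in sh-CTRL cells, ordered by falling mean CPM, with the limma-voom SE as bars. The 8 genes drawn past an adjusted p of 0.25 (red) lie between 0.07 and 0.26, among others at similar levels that lie near 0.

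The same genes reappeared in their pseudogenes. Each of the 28 pseudogenes that passed was aligned to the protein-coding transcripts of GENCODE 29. The closest coding gene was RPL34, RPS18, RPL29, RPL37, RPS7, RPL26 or MT-CO2 for 25 of them, and RSL24D1, a ribosome biogenesis factor, for AC008126.1. Over these 26 the identity of the aligned bases ran from 87.1 to 99.1%. Of the 3455 pseudogenes tested 0.81% passed, against 0.0926% of the other 14035 genes. Reads from a gene and from such a copy can be assigned to either, so a count on a pseudogene is uncertain, and the counts of gene and copies are best read together.

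RPL34P18 was the copy with the most UMIs of its family that passed, with 8470, 9180 and 9050 CPM (EF1α) and 10800 and 9490 (SFFV) at day 10. At day 13 it had 10500, 10500 and 13100 under EF1α and 16100 and 12300 under SFFV. Both SFFV libraries and all EF1α libraries of day 13 lay above the day 10 libraries of their own promoter. RPL34P18 rose by 0.37 ± 0.03 on the log2 scale, with an adjusted p of 6.16e-13 in limma-voom and 2.1e-22 in edgeR. Other copies of RPL34 moved by similar amounts, with log2 fold changes of 0.36 for RPL34P27, 0.41 for RPL34P34 and 0.40 for AL136968.2, each past the threshold.

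Added together, RPL34 and its 21 named copies held 40400 ± 2650 CPM at day 10 and 51200 ± 8410 at day 13, 1.27-fold more (exact permutation test within promoters, two-sided, p = 0.0167, the smallest that 120 assignments allow). Copies took between 52.1 and 54.5% of the family's UMIs at day 10 and between 53.6 and 58.1% at day 13 (difference 2.44 percentage points, same exact test, p = 0.0167). This was 1 of 7 families tested, with an adjusted p of 0.117 over them, and the share depends on how reads were assigned between gene and copy. For RPL29, RPS18, RPL37, RPS7, RPL26 and MT-CO2 the share on copies differed by between −0.0836 and 1.78 points, with exact permutation p-values between 0.0667 and 0.8. The family sums of RPS18 and RPL37 were 1.18-fold and 1.22-fold higher at day 13, and that of RPL29 1.12-fold (exact permutation p = 0.0167 each). These families, RPL34 among them, were taken because their genes had passed in the same libraries. The p-values of their sums are therefore not a separate test. When the counts of named pseudogenes were added to their genes before the test, 17 genes passed in limma-voom and 19 in edgeR. RPL11 and RPLP1 did not pass this way (adjusted p = 0.782 and 0.675 in limma-voom). The translation factor gene EEF1A1, which did not pass by itself, did so in limma-voom (adjusted p = 0.0194) but not in edgeR (0.996).

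The wider shares that contain these families differed between the days as well. Pseudogenes as a class took 17.8 to 18.6% of UMIs in the day 10 libraries and 18.7 to 20.1% at day 13. Ribosomal protein genes took 12.7 to 13.1% and 13.2 to 14.1%, and the 10 most abundant genes of a library 6.88 to 8.03% and 7.76 to 10.1% (exact permutation p = 0.0167 for each of the 3 shares). All 3 include RPL34 or its copies, which alone took 3.7 to 4.57% of UMIs at day 10 and 4.38 to 6.36% at day 13, so they are not separate observations. The share of mitochondrially encoded transcripts was 1.76 to 1.89% at day 10 and 1.77 to 1.9% at day 13 (exact permutation p = 0.583). Total UMIs did not separate the days, at 441383 to 774669 (median 520334) and 351081 to 637762 (median 553015), exact permutation p = 0.833.

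The RPL34 family varied with depth in the series as a whole. Across the 10 libraries of day 4, log2 family CPM fell with log2 total UMIs (Pearson r = −0.959, Spearman rho = −0.927, permutation p = 6e-05 and 0.00046, adjusted p = 0.00016 and 0.00092 over 6 relations). The same relation gave r = −0.83 and rho = −0.903 at day 10 (n = 10, permutation p = 0.00046 and 0.00076, adjusted 0.00069 and 0.0011). At day 13 it gave r = −0.872 and rho = −0.784 (n = 11, permutation p = 0.0015 and 0.0058, adjusted 0.0018 and 0.007). Without the 2 libraries farthest in depth r was −0.908, −0.81 and −0.872 at the 3 days. Among the 10 sh-CTRL libraries compared here r was −0.598 and rho −0.377 (permutation p = 0.071 and 0.29, adjusted the same). Without the 2 farthest libraries this r was 0.167. It pools 2 days of different level, so that it does not give the relation within a day. Within day 13 the sh-CTRL library of 351081 UMIs had 64100 CPM, and those of 603822 and 637762 UMIs had 43900 each. Within day 10 the deepest, of 774669 UMIs, had the lowest value, 37300 CPM, and the shallowest, of 441383, had 39600. The remaining 2 relations, over all 31 libraries and over the 21 outside the comparison, had r of −0.736 and −0.79 and rho of −0.713 and −0.797 (permutation p = 2e-05 for both of the former and 8e-05 for both of the latter, adjusted 0.00012 and 0.00012, then 0.00016 and 0.00024). Without the 2 farthest libraries these r were −0.726 and −0.801.

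Depth and day were set beside each other directly. With log2 total UMIs as a covariate, 41 genes passed, 40 of them among the original 41, and RPL34 had an adjusted p of 0.0041. With all libraries thinned to the smallest total, 34 genes passed, and 27 of the original 41 kept their call. SFFV/sh-CTRL day 13 replicate 1 was the shallowest of the 10 libraries and had the highest RPL34, RPS18, RPL37 and CAPZB. Without it 39 genes passed, and 33 of the 41 kept their call.

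**Figure D3:**
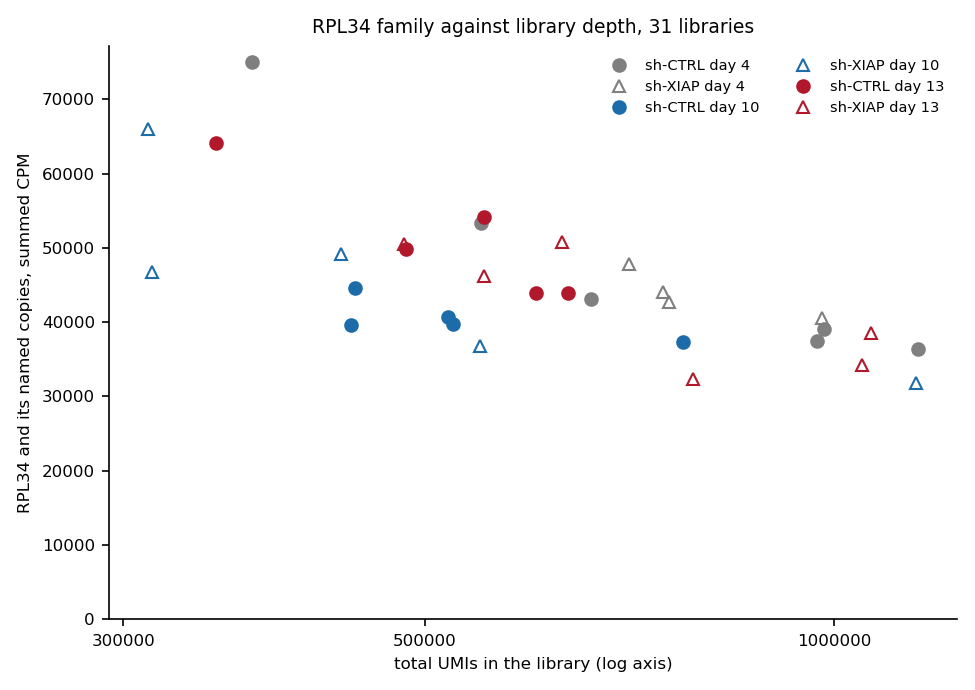
Summed CPM of RPL34 and its 21 named copies against total UMIs (log axis) in all 31 libraries, filled circles for sh-CTRL and open triangles for sh-XIAP, colored by day. Shallow libraries lie higher at each day, and the 5 sh-CTRL libraries of day 13 (43900 to 64100 CPM) overlap those of day 10 (37300 to 44600) only at their lower end.

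Level also went with being called. Of 98 genes with a mean over 1000 CPM 25 passed (25.5%), of 1799 between 100 and 1000 CPM 13 (0.723%), and of 15593 below 100 CPM 3 (0.0192%). The median SE of the log2 fold change was 0.0302, 0.105 and 0.371 in these classes. A change of the size seen in RPS18 was thus not detectable at this depth in most genes. The median log2 fold changes were 0.04, 0.01 and 0.00.

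CAPZB encodes the beta subunit of the heterodimer that caps the barbed end of actin filaments, and had the largest log2 fold change of the protein-coding genes that passed as higher in limma-voom. The edgeR test alone passed TMEM101 (0.86), EDC3 (0.72) and MCUR1 (0.71) with larger values, named after these were seen (adjusted p between 0.101 and 0.222 in edgeR and between 0.312 and 0.446 in limma-voom). It had 130, 129 and 124 CPM under EF1α and 154 and 133 under SFFV at day 10. At day 13 it had 181, 160 and 210 under EF1α and 218 and 178 under SFFV. Every day 13 library lay above every day 10 library, as in 0.314% of all genes tested. The mean went from 134 ± 11.5 to 189 ± 24.1 CPM, 1.41-fold, from 365 and 488 UMIs in all, with a log2 fold change of 0.49 ± 0.11 and an adjusted p of 0.0145 in limma-voom, 0.00183 in edgeR and 0.0381 in DESeq2.

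The partners of CAPZB did not pass the test. CAPZA1, which encodes an alpha subunit of the same heterodimer, stood at 165 ± 15.2 and 160 ± 19.2 CPM (log2 fold change −0.04), and CAPZA2 at 70.5 ± 5.62 and 67.4 ± 14.9 (−0.06). Both were named after their values were seen. CAPZB was the sole member of 33 tested genes of the actin cytoskeleton list past the threshold, and the list's median was 0.02. At day 4 CAPZB ranged from 137 to 256 CPM in EF1α/sh-CTRL and from 138 to 175 in SFFV/sh-CTRL libraries, overlapping both later days.

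MT-CO2, the mitochondrially encoded subunit II of cytochrome c oxidase, had 6260, 6010 and 6210 CPM (EF1α) and 6800 and 6580 (SFFV) at day 10. At day 13 it had 6230, 7060 and 6790 under EF1α and 7490 and 6860 under SFFV. The EF1α libraries of day 13 at 6230 and 6790 CPM lay within the range of day 10. The log2 fold change of 0.12 ± 0.02 had an adjusted p of 4.26e-07 in limma-voom and 0.528 in edgeR. Its nuclear copy MTCO2P12 on chromosome 1, which passed with 0.18 (adjusted p = 1.79e-06 in limma-voom and 0.00992 in edgeR), has 97.953% identity over 684 bases. Of the 15 mitochondrial transcripts tested, MT-CO2 was the one that passed, and the median was −0.01.

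IGLC7, an immunoglobulin lambda constant region gene on chromosome 22 (22922594 to 22923034), was lower at day 13. It had 2250, 2350 and 2230 CPM (EF1α) and 2270 and 2160 (SFFV) at day 10, and 2060, 2090 and 2050 (EF1α) and 1920 and 2020 (SFFV) at day 13. The 2 days did not overlap. This amounted to a log2 fold change of −0.13 ± 0.02 with an adjusted p of 0.00021 in limma-voom and 0.528 in edgeR. The neighboring constant genes IGLC2 (log2 fold change −0.16, adjusted p = 0.849 in limma-voom) and IGLC3 (−0.16, adjusted p = 0.502), chosen for display after the values were seen, did not pass. The constant genes of this locus are close in sequence, so reads may be split between them. At day 4 IGLC7 had 1770 to 2060 CPM under EF1α/sh-CTRL and 1800 to 1980 under SFFV/sh-CTRL, below both groups of day 10.

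RPEL1, a retrogene related to the pentose phosphate enzyme gene RPE, had few counts. There were 19 UMIs in the 5 day 10 libraries together (9.11, 7.57 and 2.18 CPM under EF1α, 8.78 and 5.72 under SFFV) and 0 UMIs at day 13. The adjusted p was 0.00248 in limma-voom and 0.00447 in edgeR. With 3 counts over the group as the floor at day 13, the pooled counts gave a 6.16-fold lower level. This takes the 19 UMIs of day 10 as exact, so it is not a lower bound. RPEL1 was detected in other libraries of the series, with a mean of 2.57 CPM in EF1α/sh-XIAP and 3.3 in SFFV/sh-XIAP at day 13. RPE itself had 45.9 ± 9.94 and 36.7 ± 10.9 CPM, which did not pass (adjusted p = 0.979 in limma-voom). RPE was added after its values were seen, and RPEL1 shares sequence with it, which makes its few counts uncertain. The next genes lower at day 13 by edgeR were STAG3L3, PTPRM, RPS11P7 and PTGR2. Of these STAG3L3 (12 ± 3.24 and 3.44 ± 2.33 CPM), PTPRM (36.7 ± 9.23 and 19.7 ± 4.97) and RPS11P7 (22 and 3 UMIs in all) had an adjusted p of 0.221 in edgeR, and between 0.258 and 0.421 in limma-voom. PTGR2 (12.5 ± 4.43 and 4.25 ± 2.62 CPM) passed neither test.

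Few counts lay behind a called pseudogene as well. AC008126.1 had 1 UMI at day 10 and 11 at day 13, and its adjusted p was 0.248 in limma-voom and 0.578 in edgeR.

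The other gene lists had no member past the limma-voom threshold in 26 of 30 cases. No cell cycle gene passed. In S-phase DNA replication 28 of 45 genes were lower, with a median log2 fold change of −0.04, and in G2 and mitosis 26 of 43, with −0.03. Small changes in single genes were mostly not detectable, since limma-voom recovered 18 of 200 genes with a simulated 1.25-fold change. POLE, a DNA polymerase subunit, had 134 ± 11.5 and 108 ± 11 CPM without overlap, as in 0.806% of all genes tested, and an adjusted p of 0.923. Of the MYC and ribosome biogenesis genes 0 of 38 passed and the median was 0.00, with HEATR1, a factor for ribosomal RNA processing, at 47.8 ± 8.39 and 30.1 ± 6.14 CPM (log2 fold change −0.59, adjusted p = 0.704). Of 37 translation factors 0 passed, with a median of −0.01.

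Metabolic and stress lists showed no called gene either. The hypoxia response list had the highest median, 0.09 over 17 genes, of which 0 passed. The ATF4 and amino acid stress list had 25 of 34 genes higher and a median of 0.07, and 0 passed. ATF3, a stress-induced transcription factor, had 6.59 ± 3.38 and 12.5 ± 3.32 CPM (adjusted p = 0.936). The lowest median was that of the apoptosis machinery, −0.08 over 43 genes with 27 lower and 0 past the threshold. XIAP had 18.2, 3.78 and 8.71 CPM (EF1α) and 4.39 and 15.3 (SFFV) at day 10, and 9.96, 11 and 13 (EF1α) and 8.61 and 12.2 (SFFV) at day 13 (adjusted p = 0.989). BIRC2, a related inhibitor, had 40.4 ± 8.13 and 35.1 ± 6.41 CPM (adjusted p = 0.991), and BIRC3 had 1 UMI at day 10 and 0 at day 13.

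Lists for the cell's own identity had no member past the threshold. The 13 B-cell precursor markers were all tested, summed to 5240 to 5720 CPM at day 10 and 5280 to 5630 at day 13, and 0 of them passed. The cells thus carried the markers of the labelled line at both days. Markers of T and NK cells summed to at most 26.3 CPM in any of the 10 libraries, those of myeloid cells to at most 14.4, of erythroid cells to at most 2.18, and of fibroblasts or epithelia to at most 5.74. HLA class II and CD74 had 0 of 13 past the threshold and a median of 0.00. CD74, the invariant chain, was 686 ± 47.1 and 602 ± 28.7 CPM without overlap (log2 fold change −0.18, adjusted p = 0.414). Such separation was found in 0.806% of all genes tested. Among 39 interferon-stimulated genes 0 passed, 19 were higher and 20 lower, and the median was −0.01. IFIH1, a sensor of double-stranded RNA and the lowest of them, had 16.5 ± 4.11 and 7.76 ± 3.71 CPM without overlap (−1.04, adjusted p = 0.755). MX2, the highest, had 2.22 ± 2.13 and 6.42 ± 4.56 CPM (1.37, adjusted p = 0.861). DUSP1, a phosphatase of the immediate early list, had 229 ± 11.9 and 279 ± 24.1 CPM without overlap and passed in edgeR alone (adjusted p = 0.246, and 0.333 in limma-voom).

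The sh-XIAP libraries of the same days shared no sample with this comparison. There, 3 of 17395 genes passed in limma-voom (0.0172%), ZNF586 (lower), RPS18 and RPL34P18, and 8 passed in edgeR. In limma-voom, 31 of the 41 genes had the same sign in sh-XIAP cells, against 49% of the 16548 genes tested in both. Many of the 41 are copies of one another, so these are not 31 separate observations. The signs are also those of fitted values, which the CPM did not always share. In sh-XIAP cells mean RPL34 went from 21600 to 19900 CPM under EF1α and from 20600 to 19100 under SFFV. RPL34P18 went from 11500 to 10300 and from 10600 to 9480. AL136968.2 had 0.02 in limma-voom and −0.21 in edgeR (adjusted p = 0.134 in edgeR). The median limma-voom log2 fold change of the 41 was 0.27 in sh-CTRL and 0.03 in sh-XIAP cells. For RPS18 limma-voom gave 0.21 ± 0.01 in sh-CTRL and 0.14 ± 0.02 in sh-XIAP cells (adjusted p = 3.6e-06 in sh-XIAP). Mean RPS18 CPM in sh-XIAP cells was not higher at day 13, however. It went from 10400 to 9950 under EF1α and from 10300 to 10000 under SFFV. By limma-voom RPL34 had 0.26 ± 0.02 in sh-CTRL and 0.12 ± 0.06 in sh-XIAP cells (adjusted p = 0.99 in sh-XIAP). CAPZB had 0.49 ± 0.11 and −0.19 ± 0.11 (adjusted p = 0.99).

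Whether the day effect differed between the hairpins depended on the test. The limma-voom interaction of shRNA and day passed 0 of 17683 genes, with 880 at an unadjusted p under 0.05, and DESeq2 and limma-trend passed 0 as well. The edgeR interaction passed 35 (0.198%), 28 of them with a lower day effect in sh-XIAP cells, and 22 of the 35 were among the 41. For RPL34 the edgeR difference, sh-XIAP minus sh-CTRL, was −0.38 on the log2 scale (adjusted p = 1.88e-05, and 0.938 in limma-voom). For CAPZB it was −0.66 (adjusted p = 0.00572, and 0.533 in limma-voom), and for RPS18 −0.30 (adjusted p = 0.0088, and 0.974). In sh-XIAP cells the RPL34 family ranged from 31800 to 66000 CPM at day 10 in the SFFV group alone, wider than in any sh-CTRL group of these days, in libraries of 312852 to 1148669 UMIs.

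**Figure D4:**
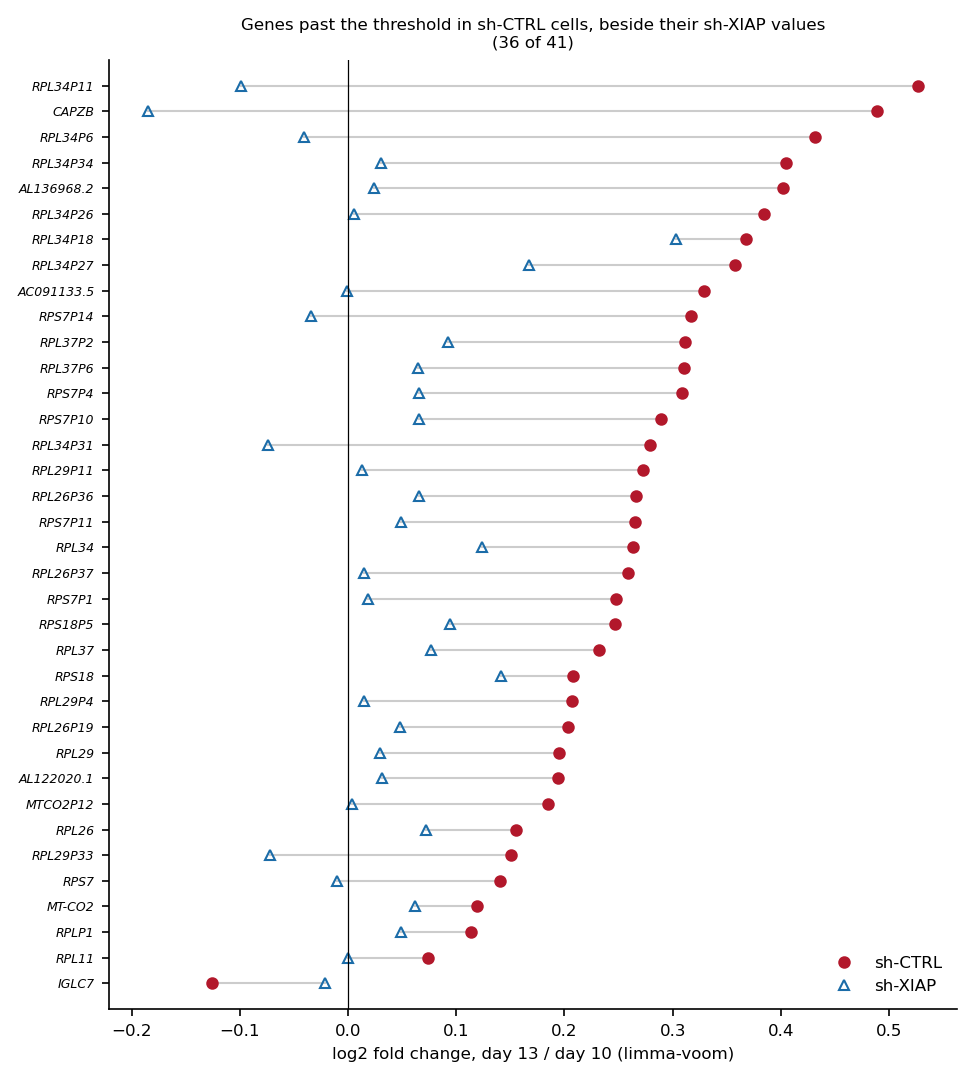
The limma-voom log2 fold change from day 10 to day 13 of 36 of the 41 genes past the threshold in sh-CTRL cells (red circles). Beside it is the limma-voom value of the same gene in sh-XIAP cells (blue triangles). Most sh-XIAP values lie nearer to 0, with a median over the 41 of 0.03 against 0.27.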

How the data were processed

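RNA was measured in 31 bulk libraries by a UMI-based 3′ end protocol, prime-seq. The authors deposited a table of whole-number UMI counts per gene, not normalized, with 30667 Ensembl identifiers. The submitters' processing notes name STAR 2.6.0a and the builds hg38 and mm10. The identifiers were matched to GENCODE 29, which holds 29928 of them, and symbols came from a name table for 30548. One UMI stands for 1 captured 3′ end, so counts were not divided by length. The 10 sh-CTRL libraries held 351081 to 774669 UMIs.

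A gene was kept if 4 or more of the 10 libraries exceeded 1 CPM. Counts were scaled by TMM in edgeR 4.0.16 and fitted in limma 3.58.1 (voom) with promoter and day as terms in R 4.3.3. The threshold was a Benjamini-Hochberg adjusted p of 0.25, over all genes tested, after the study's methods. The alternatives tried were DESeq2 1.42.0, the quasi-likelihood test of edgeR, limma-trend, other scalings, filters, blocks and sample sets, and leaving out each library. Single values were tested by an exact two-sided permutation of days within promoters. CPM per library is TMM-scaled over all 31 libraries, with a prior count of 2 on the log scale. Pseudogenes were aligned by BLAST. On simulated data of this comparison, limma-voom recovered 18 of 200 genes changed 1.25-fold, with 12 false calls, and 152 of 200 changed 2-fold, with 61 false calls. Pairs of replicates differed by more than sampling noise (chi-square per gene 1.08 to 1.36), and none was counted as a duplicate.

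Named genes were, in each direction, the 12 with the smallest limma-voom p that also had an edgeR p under 0.05 and 1 sign under both promoters, the 5 smallest edgeR p-values where fewer than 5 genes qualified, called members and the 3 highest members of each list, the interaction calls, and XIAP, BIRC2 and BIRC3. The members and lists were chosen with earlier results of these data known. RPLP0, RPL17, POLE, HEATR1, ATF3, IFIH1, MX2, MTCO2P12 and AC008126.1 lay outside the rule and were chosen after their values were seen. One gene and its copies are not reported here by name. No library was left out of the comparison as an outlier here. The study left out 5 libraries as outliers, and the sources used here do not state whether the 31 analysed here still include them. SFFV/sh-CTRL has 3 libraries at day 4 but 2 at day 10 and 2 at day 13. The groups compared may therefore have been trimmed before deposit.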

Additional observations from a re-analysis of the deposited data

Results flagged for a closer look

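Libraries and genes of each day (5 libraries each) were tested for a value that stands apart, 46 tests in all, of which chance alone flags about 1 in 20. In EF1α/sh-CTRL day 10 replicate 1, the deepest of the 10 libraries, total UMIs were 774669 with the next at 524479, and 18040 genes were detected with the next at 16669. The same library had the lowest share of ribosomal protein genes, 12.7%, with the others at 13 to 13.1%, and the highest RPLP1, 1440 CPM, with the next at 1340. SFFV/sh-CTRL day 13 replicate 1, the shallowest, had a first principal component score of −66.6, with the other day 13 libraries between 4.47 and 7.13. That component holds 16.1% of the variance. Without this library 39 genes passed and without EF1α/sh-CTRL day 10 replicate 1 43 passed, and in each case 33 of the 41 calls were kept.

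The day effect differed between promoters for RPL29, by −0.16 on the log2 scale (SFFV minus EF1α), and for RPL29P4, by −0.21, in limma-voom. It differed between sh-XIAP and sh-CTRL cells for 35 genes in edgeR and for 0 in limma-voom. Whether depth has a part in these differences was not tested.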

How the results depend on the processing

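The count of genes past the threshold for day 13 against day 10, 41 in limma-voom, moved by more than 1.5 times in 9 of 34 alternatives. It was 26 with DESeq2 (all higher), 62 with no filter on low counts, 3 with all 21 libraries of both days in the fit, 2 with all 31, 18 in the SFFV libraries alone and 12 with protein-coding genes only. Alternatives chosen after seeing the data gave 17 with pseudogene counts added to the named gene, 19 with the same in edgeR and 13 with ribosomal protein genes and their copies left out. It was 43 in edgeR, 42 in the EF1α libraries alone, and lay between 36 and 58 when 1 library was left out, the highest without EF1α/sh-CTRL day 13 replicate 1. Of the 41 calls, 0 changed sign under any alternative. The cause of the loss in the larger fits was not tested.

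The replicate block by number gave 44 genes. Same-numbered libraries did not deviate together (r between −0.0402 and 0.00116 over 4085 genes), so the numbers were not taken as pairs. For promoter by day, 2 in limma-voom, the count was 0 with edgeR, DESeq2, limma-trend and DESeq2 size factors, 5 with no filter and 3 with the replicate block, and between 0 and 17 with 1 library left out (17 without EF1α/sh-CTRL day 13 replicate 3). For sh-XIAP, 3 in limma-voom, it was 8 with edgeR, 0 with DESeq2 and limma-trend, 21 with no filter, 4 with the block, and 0 to 4 with 1 library left out. For shRNA by day, 0 in limma-voom, it was 35 with edgeR, 1 with DESeq2 size factors, 15 with no filter, 1 with the replicate block, and 0 to 15 with 1 library left out. With 1 library left out, the difference in the share of ribosomal protein genes lay between 0.469 and 0.636 percentage points, with an exact permutation p of 0.05 without EF1α/sh-CTRL day 10 replicate 1. For the shares of pseudogenes and of the 10 most abundant genes the exact permutation p was 0.0167 or 0.0333 with each library left out.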
